A study of Homo sapiens with 10 samples.

Results

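The genes described are 10 receptor-type protein tyrosine phosphatases, PTPRM, PTPRK, PTPRU, PTPRB, PTPRJ, PTPRF, PTPRS, PTPRA, PTPRE and PTPRG, out of 60448 genes in the count table. Their rows were found by matching Ensembl gene identifiers to GENCODE 44 symbols, and all 10 were found. The family was chosen by the counts of PTPRM, which is nearly absent from HMEC-1, so the PTPRM values between the lines are the ground of the choice and are given without a test. RNA-seq was performed on untreated EA.hy926 and untreated HMEC-1 cells, with 5 biological replicates of each line, both with a wild-type genotype label. HMEC-1 is of microvascular origin, from the skin, and owes its unlimited growth to the SV40 large T antigen. EA.hy926 has a mixed parentage, because the umbilical vein endothelial parent was fused to A549, an epithelial lung tumour line. EA.hy926 grew in Advanced DMEM with serum, and HMEC-1 in MCDB 131 with serum, epidermal growth factor and hydrocortisone, so line and medium cannot be told apart in any value that follows. The comparison asks how the transcriptomes of these endothelial models differ.

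Receptor-type protein tyrosine phosphatases cross the plasma membrane once, with an extracellular part that senses neighbouring cells, matrix or soluble ligands. In most of them the cytoplasmic part removes phosphate from tyrosines. In endothelium several of them sit at cell-cell contacts and counter the kinases that loosen junctions or carry growth factor signals. The 10 genes fall into subfamilies by their extracellular part. PTPRM, PTPRK and PTPRU form R2B, of which PTPRM and PTPRK bind their own kind on adjoining cells. PTPRB and PTPRJ (R3) carry chains of fibronectin-like repeats, and PTPRF and PTPRS (R2A) bind proteoglycans. PTPRA and PTPRE (R4) have short extracellular parts, and PTPRG has a carbonic anhydrase-like domain.

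Library totals ran from 34846046 to 39899324 counts in EA.hy926 against 33391640 to 43877224 in HMEC-1. Levels are given as CPM, the counts of a gene per 1000000 counts of its library, with the library size scaled by a TMM factor. A count of 3, taken as the floor, corresponded to 0.0651 to 0.0904 CPM. Of 12 endothelial marker genes, 10 exceeded 3 counts throughout EA.hy926 and 12 throughout HMEC-1, with summed levels of 5388 to 6114 CPM and 1932 to 1992 CPM. The endothelial markers EMCN (0 to 2 counts) and CLDN5 (0 to 5 counts) were at or near the floor in EA.hy926. Epithelial markers summed to 680.1 to 738 CPM in EA.hy926 compared with 129 to 147 CPM for HMEC-1. Their members with an adjusted p below 0.05 and at least a 2-fold difference went both ways. KRT8, a simple epithelial keratin, was at 546 ± 21.7 against 19.2 ± 0.947 CPM (SD, n = 5) and EPCAM was also higher in EA.hy926, whereas KRT19, CLDN7 and CLDN4 were lower, with log2 fold changes of -4.71, -4.54 and -1.42. CDH1, ESRP1 and ELF3 had at most 3 counts in every library of either line. Fibroblast markers summed to 49.6 to 55.5 CPM and 473 to 502 CPM, and they also went both ways, since FAP was at 50.7 ± 2.20 against 0.142 ± 0.0429 CPM while COL1A1, COL1A2, COL3A1 and PDGFRB were lower in EA.hy926. Leukocyte markers summed to 3.69 to 4.45 CPM and 3.88 to 4.51 CPM. The part of these marker differences in the phosphatase values was not tested.

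The sequences before the starts of the 3 genes with the widest differences between the lines (PTPRM and PTPRU, higher in EA.hy926, and PTPRJ, higher in HMEC-1) are shown because members that differ so widely in level can be set beside the base composition of their start regions. Each is the 250 bases of GRCh38 that precede the most upstream GENCODE 44 start of the gene, written 5′ to 3′ on the strand of the gene, with CG dinucleotides in capitals, and no annotated exon falls inside these windows.
PTPRM, chr18:7566532-7566781, plus strand: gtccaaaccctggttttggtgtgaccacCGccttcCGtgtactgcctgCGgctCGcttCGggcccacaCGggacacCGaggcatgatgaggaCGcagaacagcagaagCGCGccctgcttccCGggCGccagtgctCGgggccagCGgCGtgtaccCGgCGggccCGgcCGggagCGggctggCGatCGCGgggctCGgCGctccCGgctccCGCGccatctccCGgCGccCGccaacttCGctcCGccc
PTPRU, chr1:29236266-29236515, plus strand: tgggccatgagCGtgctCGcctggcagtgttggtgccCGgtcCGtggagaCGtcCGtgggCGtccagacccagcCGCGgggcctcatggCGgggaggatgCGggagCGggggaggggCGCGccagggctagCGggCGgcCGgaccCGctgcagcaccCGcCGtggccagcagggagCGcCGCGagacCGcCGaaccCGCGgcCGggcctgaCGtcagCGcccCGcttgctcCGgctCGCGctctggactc
PTPRJ, chr11:47980175-47980424, plus strand: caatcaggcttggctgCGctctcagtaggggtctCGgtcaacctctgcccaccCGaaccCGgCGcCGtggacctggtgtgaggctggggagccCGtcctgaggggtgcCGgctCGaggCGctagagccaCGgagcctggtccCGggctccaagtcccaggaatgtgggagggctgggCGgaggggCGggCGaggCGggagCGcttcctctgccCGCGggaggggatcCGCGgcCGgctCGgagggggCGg
The PTPRM window held 33 CG dinucleotides, the PTPRU window 34 and the PTPRJ window 24. The median of 20044 protein-coding genes with a window of the same length was 14, and 8.15% of them had at least as many as PTPRM, 6.88% as many as PTPRU and 24.6% as many as PTPRJ. Over the 10 members the count ran from 2 (PTPRB and PTPRF) to 44 (PTPRS), so both CG-poor and CG-rich windows occurred among them. The letters TATAAA, searched on both strands, were in 0 of the 10 windows and in 10% of all windows. Which start these lines use was not tested, so a window need not be the promoter in use. A relation of the base composition to the levels was not tested either.

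PTPRM (ENSG00000173482, GRCh38 chr18:7566782-8406861, plus strand) encodes an adhesion phosphatase that binds itself across cell contacts and associates with cadherins. Its levels in the 5 EA.hy926 libraries were 183, 164, 161, 153 and 160.0 CPM, from 5433 to 6755 counts. In the HMEC-1 libraries they were 0.399, 0.441, 0.304, 0.564 and 0.366 CPM, from 14 to 23 counts. The lines were far apart, and the HMEC-1 counts stood above the floor of 3 counts in every library. The means were 164 ± 11.2 and 0.415 ± 0.0975 CPM (SD, n = 5), a 395.5-fold difference, and the fitted log2 fold change (log2FC, EA.hy926 over HMEC-1) was 8.62 with a standard error of 0.081. It was 8.50 to 8.75 when any 1 library was left out. Among 16310 genes with enough counts to be fitted, PTPRM ranked 184 by log2FC from the top. In level per exonic kilobase it stood at the percentile 79.9 of the protein-coding genes among these in EA.hy926 and at 4.24 in HMEC-1. In bulk RNA, fewer cells with a transcript and less transcript per cell cannot be told apart.

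**Figure D1:**
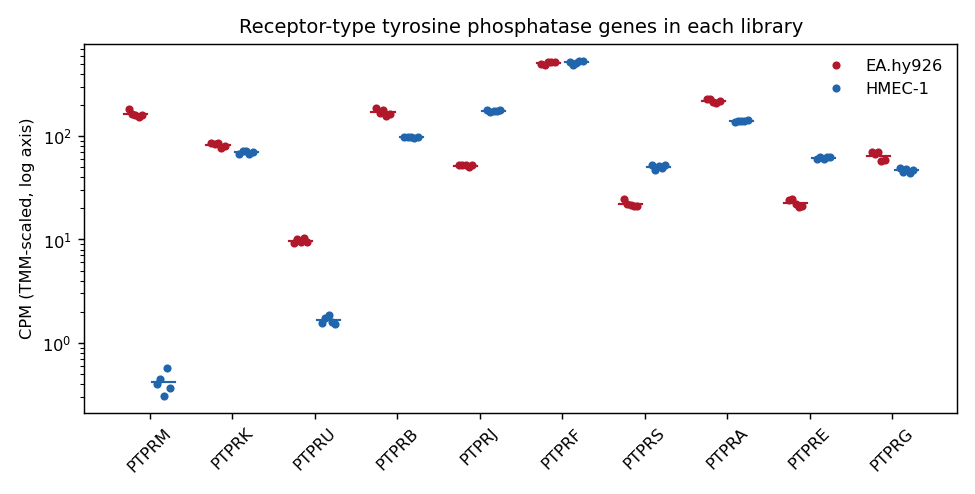
Level of each member in every library, in CPM on a log axis, with EA.hy926 in red and HMEC-1 in blue; points are libraries and the bar is the mean of 5. PTPRM lies between 153 and 183 CPM in EA.hy926 and between 0.304 and 0.564 CPM in HMEC-1, while PTPRF has overlapping points.

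For the other 9 members the lines were compared with the quasi-likelihood test of edgeR, with Benjamini-Hochberg adjustment over all 16310 genes. PTPRU was higher in EA.hy926, PTPRJ, PTPRS and PTPRE were higher in HMEC-1, and 5 members differed by less than 2-fold or did not pass the test. At an adjusted p below 0.05 and an absolute log2FC above 1, 4 of 9 members were called, beside 35.5% of all genes. Of these, 1 was higher in EA.hy926 (19.1% of all genes) and 3 were lower (16.4% of all genes). By adjusted p alone, 8 of 9 passed (85.8% of all genes), 5 higher (42.6%) and 3 lower (43.3%). The levels of the lines did not overlap for 8 of the 9 members, against 77.4% of all genes tested. The median log2FC of the 9 members was 0.24, that of all genes tested was -0.01, and the median absolute log2FC was 0.81 for the members and 0.65 for all genes tested.

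PTPRU and PTPRK are the R2B relatives of PTPRM. PTPRU (chr1:29236516-29326813, plus strand) was measured at 9.15, 10.1, 9.45, 10.2 and 9.51 CPM in EA.hy926 compared with 1.57, 1.74, 1.87, 1.60 and 1.52 CPM for HMEC-1. Every EA.hy926 library lay above every HMEC-1 library, on 332 to 393 and 55 to 86 counts. The log2FC was 2.54 ± 0.08 (SE, adjusted p = 2.73e-17), or 5.84-fold between the mean levels. PTPRK (chr6:127968785-128520616, minus strand), which also binds itself between cells, stood at 76.7 to 86.1 CPM in EA.hy926 compared with 67.8 to 71.6 CPM for HMEC-1. Its difference was small but passed the adjusted p, with a log2FC of 0.24 ± 0.03 (SE, adjusted p = 7.03e-07). The R2B genes PTPRM and PTPRK shared 1.02% and 1.94% of their exonic bases with other annotated genes, and PTPRU shared none.

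Among the R3 members, PTPRB encodes the vascular endothelial phosphatase that acts on VE-cadherin and the angiopoietin receptor TEK. PTPRB (chr12:70515870-70637440, minus strand) was measured at 186, 169, 181, 158 and 164 CPM in EA.hy926. In HMEC-1 it was 97.8, 97.7, 97.6, 97.2 and 98.6 CPM, the narrowest spread of any member in either line (coefficient of variation 0.54%). The log2FC was 0.81 ± 0.04 (SE, adjusted p = 4.76e-15), 1.75-fold between the means and below the fold threshold. PTPRJ, which acts on growth factor receptors (chr11:47980425-48170839, plus strand), went the other way. It was measured at 52.6, 52.5, 52.3, 49.8 and 52.7 CPM in EA.hy926 compared with 179, 173, 174, 176 and 180.2 CPM for HMEC-1. The lowest HMEC-1 library was above the highest EA.hy926 library. PTPRJ was 3.40-fold higher in HMEC-1, with a log2FC of -1.76 ± 0.03 (SE, adjusted p = 3.11e-23).

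The R2A members PTPRF and PTPRS are receptors for proteoglycans that recruit liprins. PTPRF (chr1:43525187-43623666, plus strand) was measured at 501, 493, 527, 521 and 521 CPM in EA.hy926 compared with 524, 491, 512, 536 and 538 CPM for HMEC-1. The lines overlapped, and the log2FC of -0.02 ± 0.03 (SE, adjusted p = 0.482) did not pass the test. PTPRS (chr19:5158495-5340812, minus strand) was measured at 24.6, 22.2, 21.4, 21.0 and 21.3 CPM in EA.hy926 compared with 52.3, 47.5, 51.2, 49.7 and 52.2 CPM for HMEC-1. It was 2.29-fold higher in HMEC-1, with a log2FC of -1.19 ± 0.04 (SE, adjusted p = 1.66e-16).

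The R4 members PTPRA and PTPRE share related phosphatase domains, and PTPRA is known to activate SRC by removing its inhibitory phosphate. PTPRA (chr20:2873420-3039076, plus strand) was measured at 229, 228, 214, 208 and 219 CPM in EA.hy926 compared with 139, 140.1, 140.0, 142 and 144 CPM for HMEC-1. Its log2FC was 0.64 ± 0.03 (SE, adjusted p = 4.74e-15), 1.56-fold between the means. PTPRE (chr10:127907103-128085855, plus strand) was measured at 24.0, 24.8, 22.0, 20.8 and 21.3 CPM in EA.hy926 compared with 60.4, 63.3, 60.6, 62.8 and 63.2 CPM for HMEC-1. It was 2.75-fold higher in HMEC-1, with a log2FC of -1.46 ± 0.04 (SE, adjusted p = 2.81e-18). PTPRG (chr3:61561569-62297609, plus strand), a receptor for contactins, stood at 58.1 to 70.3 CPM in EA.hy926 compared with 44.3 to 49.4 CPM for HMEC-1. Its log2FC was 0.47 ± 0.05 (SE, adjusted p = 1.36e-08), and 9.18% of its exonic bases and 8.97% of those of PTPRB lie under exons of other genes.

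The scaling of the libraries moved all of these values together. Scaled by library totals alone, without TMM factors, the median log2FC of all genes shifted by -0.13, and the log2FC became 0.11 for PTPRK, -0.16 for PTPRF and 8.49 for PTPRM. PTPRF then passed the adjusted p (4.42e-05) at a distance from 0 close to that shift, no member changed sign, and the same number of members (4 of 9) passed both thresholds. The EA.hy926 library 4 had the lowest value of its line for 8 of the 10 members and EA.hy926 library 1 the highest for 4, whereas in HMEC-1 no library was lowest for more than 3. The coefficient of variation over replicates had a median of 5.69% in EA.hy926 (2.37 to 9.03%) and 3.18% in HMEC-1 (0.54 to 23.5%), the highest being that of PTPRM in HMEC-1.

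**Figure D2:**
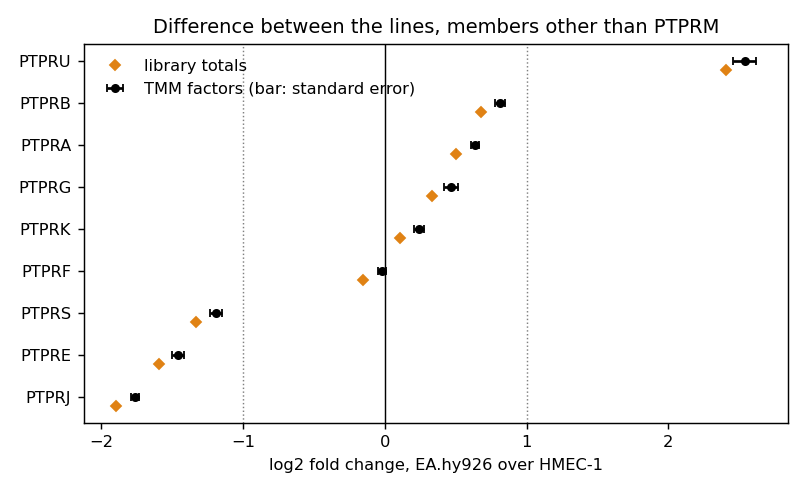
Log2FC of the 9 members other than PTPRM, positive where EA.hy926 is higher, as black points with standard errors (TMM factors) and orange diamonds (library totals); dotted lines mark an absolute log2FC of 1. PTPRU lies beyond the right line at 2.54, PTPRS, PTPRE and PTPRJ beyond the left line at -1.19 to -1.76, and each diamond lies left of its point.

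Levels of different genes were compared as CPM per kilobase of exon. In EA.hy926 the order was PTPRA (56.1 ± 2.32), PTPRF (47.9 ± 1.36), PTPRM (16.6 ± 1.13), PTPRB (11.8), PTPRK (9.25), PTPRJ (5.34), PTPRG (4.43), PTPRE (2.02), PTPRS (1.87) and PTPRU (1.45). The ranges of PTPRE and PTPRS overlapped, and those of the other neighbours did not. In HMEC-1 the order was PTPRF (48.6), PTPRA (36.0), PTPRJ (18.1), PTPRK (7.82), PTPRB (6.72), PTPRE (5.54), PTPRS (4.29), PTPRG (3.20), PTPRU (0.248) and PTPRM (0.0419), with no overlap between neighbours. PTPRM was thus the third of the 10 in one line and the last in the other, and PTPRJ moved from the sixth place to the third. PTPRA and PTPRF together made up most of the summed level in both lines, with 35.8% and 30.6% in EA.hy926 and 27.6% and 37.2% in HMEC-1. PTPRM held 10.6% of the sum in EA.hy926 and 0.0321% in HMEC-1, and PTPRJ 3.41% and 13.9%. The summed level was 157 ± 3.97 CPM per kilobase in EA.hy926 against 131 ± 2.40 in HMEC-1 (SD, n = 5), and without PTPRM it was 140.1 ± 2.97 in EA.hy926.

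**Figure D3:**
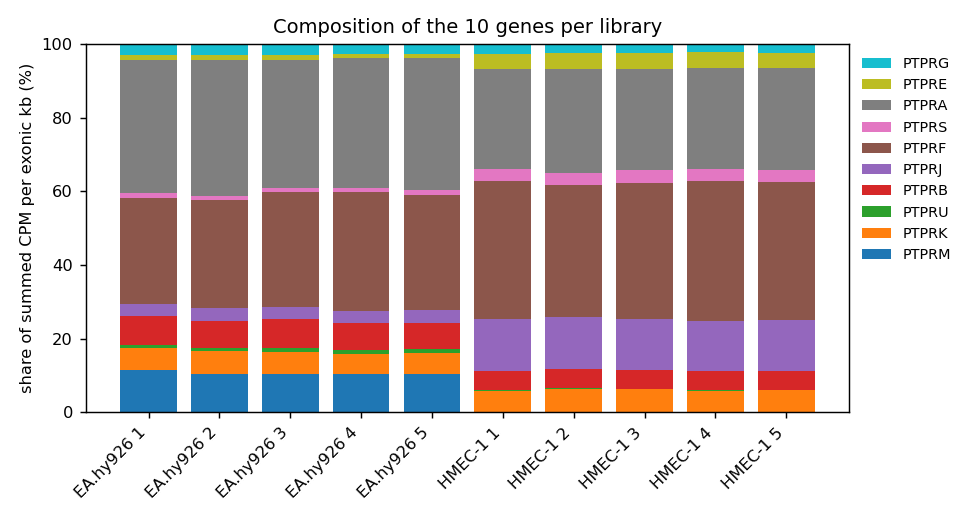
Share of each member in the summed level of the 10 genes, from CPM per exonic kilobase, as stacked bars from 0 to 100% for each library. PTPRM (bottom, blue) fills 10.6% on average in EA.hy926 and cannot be seen in HMEC-1, where PTPRJ (purple) fills 13.9% against 3.41%.

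The balance between subfamily relatives was taken inside each library as the log2 ratio of counts per kilobase, which does not depend on the scaling of libraries. PTPRM entered no ratio. The log2 ratio of PTPRB to PTPRJ was 1.06 to 1.24 in EA.hy926 but -1.45 to -1.41 in HMEC-1, so PTPRB was 2.21 times PTPRJ in one line and 0.371 times PTPRJ in the other. That of PTPRK to PTPRU was 2.49 to 2.80 in EA.hy926 against 4.84 to 5.11 in HMEC-1, a difference of -2.30. That of PTPRA to PTPRE was 4.72 to 4.88 and 2.66 to 2.72, a difference of 2.10, and that of PTPRF to PTPRS was 4.49 to 4.77 and 3.46 to 3.57, a difference of 1.17. All 4 pairs differed between the lines without overlap, beside 77.4% of single genes tested. Each had p = 0.00794 in a two-sided exact permutation test, and 0.00794 after adjustment over the 4 pairs. The unadjusted p is the lowest value possible with 5 libraries in each line. No such share was computed for other pairs of genes. Each difference follows from the log2FC of its 2 genes, so the test adds no separate evidence. Only the R3 pair changed which gene was higher.

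Of 10 other receptor-type phosphatase genes, 3 had enough counts to be tested, and all 3 were higher in EA.hy926 past both thresholds, with a median log2FC of 3.34 (19.1% of all genes tested were called higher). PTPRH, an R3 relative of PTPRB, was at 13.2 ± 1.03 CPM in EA.hy926 compared with 4.51 ± 0.442 CPM for HMEC-1 (SD, n = 5; log2FC 1.56). PTPRR, a phosphatase of MAP kinases, was at 5.94 ± 0.585 and 0.595 ± 0.219 CPM (log2FC 3.34). PTPRN2, of secretory granules, had 118 to 162 counts in EA.hy926 against 1 to 7 in HMEC-1 (log2FC 5.91). The fourth R2B gene, PTPRT, had 4 to 15 counts in EA.hy926 against 0 to 1 in HMEC-1, and the other 6 had at most 8 counts in any library, among them the leukocyte gene PTPRC (2 to 6 and 0 to 1 counts) and the third R2A gene PTPRD (0 and 0 to 3 counts). Since a gene could pass the count filter through the line where it was high, the tested 3 are not a sample of the 10.

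Of 17 non-receptor tyrosine phosphatase genes, which lack a membrane-spanning part, 12 were tested, 1 was called higher and 3 lower in EA.hy926, beside 19.1% higher and 16.4% lower of all genes tested, with a median log2FC of 0.04. PTPN3, which carries FERM and PDZ domains, was at 0 counts throughout EA.hy926 against 1027 to 1482 in HMEC-1, at least 330.8-fold higher in HMEC-1 against the floor of 3 counts per library. PTPN18 and PTPN21 were lower in EA.hy926, with log2FC of -1.04 and -1.16, and PTPN20 was higher on few counts (20 to 43 against 1 to 4, log2FC 3.63). PTPN1, of the endoplasmic reticulum, had the highest level of the list per exonic kilobase, at 40.3 ± 1.18 CPM per kilobase in EA.hy926 against 34.5 ± 0.244 in HMEC-1. PTPN12 changed sign with library totals, from 0.12 to -0.02.

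Among 19 genes for ligands and extracellular partners, 13 were tested, 4 were called higher and 5 lower in EA.hy926, beside 19.1% higher and 16.4% lower of all genes tested, and the median log2FC was 0.12. The proteoglycans, which bind R2A phosphatases, were divided. SDC1 had a log2FC of 2.60 and HSPG2 of 2.09, whereas SDC2 had 3 to 10 counts in EA.hy926 against 5240 to 7271 in HMEC-1 (log2FC -9.92), GPC1 had a log2FC of -2.13, and GPC4, with 0 counts in EA.hy926, was at least 29.9-fold higher in HMEC-1. The heparin-binding growth factors also parted, MDK being higher in EA.hy926 (492 ± 32.2 against 58.6 ± 1.94 CPM, log2FC 3.07) and PTN lower (2 to 10 against 72 to 91 counts, log2FC -3.60). Of the adhesion partners of R2A phosphatases, LRRC4B was higher (463 to 551 against 2 to 9 counts, log2FC 7.09) and IL1RAP lower (log2FC -2.06). THBS1, a ligand of PTPRJ, had the highest level of the list, at 273 ± 9.03 and 188 ± 4.22 CPM per kilobase, and a log2FC of 0.54 below the fold threshold. The contactins bound by PTPRG (CNTN3, CNTN4, CNTN5 and CNTN6) had at most 6 counts in any library. SDC3 changed sign with library totals, from 0.12 to -0.02.

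Of 7 genes for liprins and TRIO, listed as direct or indirect partners of R2A phosphatases inside the cell, 6 were tested. Of these, 1 was called in each direction (19.1% and 16.4% of all genes tested), and the median log2FC was 0.04. PPFIBP2 was higher in EA.hy926 (1052 to 1289 against 1 to 9 counts, log2FC 8.12) and PPFIA4 lower on few counts (0 to 8 against 26 to 30, log2FC -2.77). PPFIBP1 had the highest level of the list (25.1 ± 0.819 and 18.5 ± 0.167 CPM per kilobase) and a log2FC of 0.44. TRIO, PPFIA1 and PPFIA3 did not pass the adjusted p, and PPFIA1 and PPFIA3 changed sign with library totals.

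Of 14 junction genes and phosphatase substrates, 13 were tested, 4 were called higher in EA.hy926 and 0 lower, beside 19.1% higher and 16.4% lower of all genes tested, and the median log2FC was 0.43. CDH5 (VE-cadherin), held at junctions and a substrate of PTPRB, was at 1268 ± 63.1 CPM in EA.hy926 compared with 441 ± 5.39 CPM for HMEC-1 (log2FC 1.52), and CDH2 (N-cadherin) had a log2FC of 1.94. ANGPT1 and ANGPT2, ligands of TEK, had log2FC of 7.26 (537 to 620 against 2 to 7 counts) and 1.64 (19 to 32 against 5 to 12 counts). TEK itself had a log2FC of 0.40, below the fold threshold. KDR, a substrate of PTPRJ, stood at 63.7 ± 11.5 and 65.5 ± 1.81 CPM and did not pass the adjusted p (0.611). RACK1, an adaptor that binds PTPRM, had the highest level per kilobase of the list in HMEC-1 (151 ± 3.13) and a log2FC of 0.26.

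Of 19 kinase and adaptor genes, 16 were tested, 3 were called higher and 2 lower in EA.hy926, beside 19.1% higher and 16.4% lower of all genes tested, and the median log2FC was -0.07. SRC, a substrate of PTPRA and PTPRE, was at 137 ± 1.78 and 50.2 ± 0.705 CPM (SD, n = 5; log2FC 1.45), BLK had a log2FC of 1.22, and BCAR1, a scaffold phosphorylated by SRC, one of 1.43. PAG1, which recruits the SRC inhibitor CSK, had at most 2 counts in EA.hy926 against 303 to 393 in HMEC-1, at least 91.8-fold higher in HMEC-1. PDGFRB, a growth factor receptor acted on by PTPRJ, had a log2FC of -4.64 (27 to 39 against 830 to 1093 counts) and also stood on the fibroblast marker list. YES1 had the highest level of the list in HMEC-1 (44.9 ± 0.508 CPM per kilobase). FYN did not pass the adjusted p (0.651) and changed sign with library totals.

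Of 12 genes for proteases that cut receptor-type phosphatases, 11 were tested, and the median log2FC was -0.07. Only PSENEN, a subunit of gamma-secretase, was past both thresholds (log2FC 1.06), beside 35.5% of all genes tested, and it was not without the HMEC-1 library 5 (log2FC 0.94) or with library totals (0.92), when PCSK5, a precursor-cleaving protease, passed both thresholds in its place (log2FC -1.03). Other genes cover 52.2% of the exonic bases of PSENEN. FURIN, which cleaves the precursors, had the highest level of the list in EA.hy926 (77.0 ± 2.38 CPM per kilobase, log2FC 0.94), and APH1A, another subunit of gamma-secretase, in HMEC-1 (44.8 ± 0.81).

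**Figure D4:**
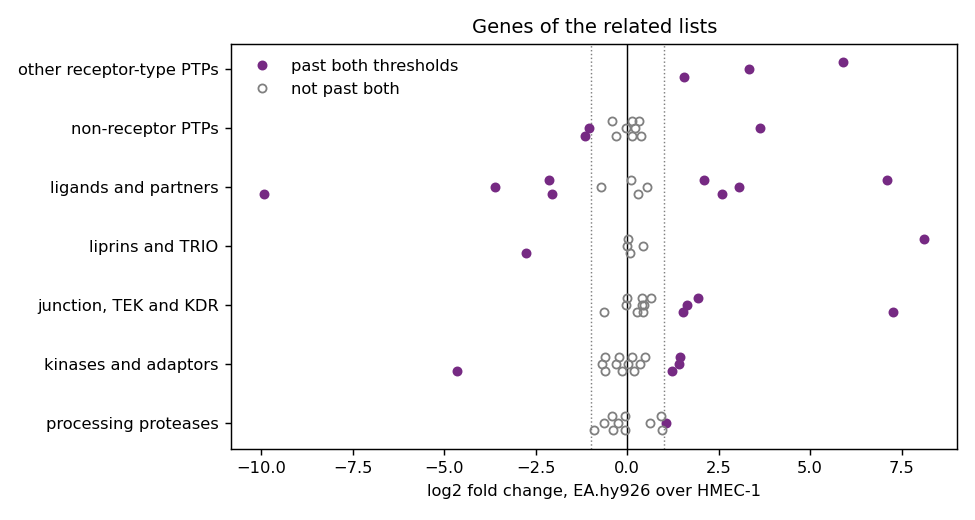
Log2FC of the tested genes of each related list, positive where EA.hy926 is higher; filled points are past both thresholds, dotted lines mark an absolute log2FC of 1, and PTPN3, GPC4 and PAG1, with at most 3 counts in every EA.hy926 library, are left out. The 3 other receptor-type phosphatases lie between 1.56 and 5.91, and the ligands spread from -9.92 to 7.09.

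Position in the genome was not used to choose the genes. Of the protein-coding genes with a start within 2 Mb of the PTPRM start, 11 others are described, of which 6 were tested. TMEM200C, a membrane protein gene 1671 kb upstream, had 1161 to 1382 counts in EA.hy926 against 0 to 4 in HMEC-1 (log2FC 10.09 ± 0.16, SE). EPB41L3, a membrane skeleton gene 1936 kb upstream, was lower in EA.hy926 (log2FC -1.57 ± 0.03). The 4 protein-coding genes between TMEM200C and PTPRM (L3MBTL4, ARHGAP28, LAMA1 and LRRC30) had at most 11 counts in any library. Downstream of PTPRM, RAB12 (log2FC -0.04) did not pass the adjusted p, ANKRD12 had a log2FC of -0.08, and MTCL1 (0.91) and TWSG1 (0.75) were higher in EA.hy926 below the fold threshold. NDUFV2 had too few counts to be tested (3 to 13 and 8 to 17 counts). The settings of the read counting are not known here, so these counts need not reflect its transcript level. The 4 tested genes named on that side had levels within 2-fold between the lines, while 35.5% of all genes tested were past both thresholds.

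**Figure D5:**
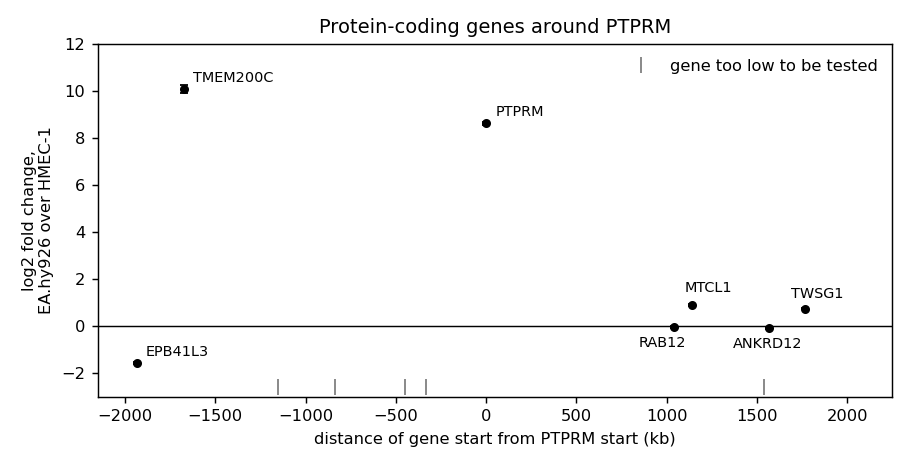
Log2FC with standard errors of the described protein-coding genes within 2 Mb of the PTPRM start, against the distance of their starts in kb. Grey ticks mark genes with too few counts to be tested. PTPRM (8.62) and TMEM200C (10.09) lie far above the other tested genes, which run from -1.57 to 0.91.

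The 5 genes with the most similar profile to PTPRM, by Euclidean distance in log2 CPM over the 10 libraries, were LINC01235 (distance 0.981), MYEOV (1.21), CD163L1 (1.32), MMRN1 (1.80) and PKIA (2.35). They lie on 5 other chromosomes. Their mean levels ran from 112 CPM (PKIA) to 172 CPM (MMRN1) in EA.hy926 and from 0.329 CPM (MYEOV) to 0.743 CPM (MMRN1) in HMEC-1. No member of the phosphatase family was among them. The distance is taken to the PTPRM levels that chose the family and compares levels, so it is a description only. Shared variation between libraries of a line was not tested.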

How the data were processed

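Polyadenylated RNA of both untreated lines was sequenced, with 5 libraries per line that the study's methods call biological replicates. The values the authors deposited were taken to be raw read counts per Ensembl gene, neither normalized nor filtered. Reads were aligned to GRCh38 with HISAT2. The study's methods name HTSeq as the counter, whereas the submitters' processing notes name featureCounts, fastp, HISAT2 and DESeq2. Their versions, the annotation release and the strand setting of the counting are not given in the sources used here, so exonic overlap was taken on either strand.

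From the counts, genes were matched to GENCODE 44 (56434 of 60448), kept if filterByExpr passed them at a minimum count of 10 and a total of 15 (16310 genes), and scaled by TMM factors. The lines were compared by the quasi-likelihood test of edgeR 4.0.16 (glmQLFit, glmQLFTest; R 4.3.3) with no covariate. Benjamini-Hochberg adjustment covered all genes tested, and a call needed an adjusted p below 0.05 and an absolute log2FC above 1. The standard error is the absolute log2FC over the root of the F statistic. Log2 CPM for profile distances carried a prior count of 2. Ratios within libraries had 0.5 added to each count and were compared by exact permutation in scipy 1.17.1. Levels per kilobase used the union of exons of a gene, and overlaps were computed with bedtools 2.31.1. A gene with at most 3 counts in every library of a line was given a bound instead of a fold.

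Alternatives were DESeq2 1.42.0, limma-voom (limma 3.58.1), RLE factors, library totals, no count filter, at least 10 counts in every library, a replicate block, glmTreat, and leaving out each library in turn. In simulated counts for the comparison of the lines, edgeR called 196 of 196 changed genes and 0 others among 16054 tested, and DESeq2 195. The changed genes all had the same fold, the dispersion was fixed for all genes, and the other genes did not differ. In the data 35.5% of the genes tested were called, so this recovery says little about the calls made here. The named genes were all members, list genes past both thresholds, the gene of each list with the highest level per kilobase, coding genes within 2 Mb of the PTPRM start and the 5 nearest profiles. The result for 1 gene in that window is not reported here. The marker genes named and list genes that did not pass were named after their values were seen. The members and the lists were chosen with earlier results of these data known. No 2 libraries agreed within sampling noise. P-values rest on the spread between these libraries, and counting intervals cover counting error only.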

Additional observations from a re-analysis of the deposited data

Results flagged for a closer look

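Dixon's test at its 95% limit was applied to the 5 libraries of each line for the members and the ratios, 28 groups in all, and it marked 1. PTPRJ in EA.hy926 library 4 was at 49.8 CPM, while the other 4 libraries of the line lay between 52.3 and 52.7 CPM, and the gap made up 0.857 of the whole range. About 1 in 20 such groups is marked by chance alone. Without any 1 library, the PTPRJ log2FC ran from -1.78 to -1.74 and remained past both thresholds.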

How the results depend on the processing

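No member and no ratio changed sign under the alternatives run. With library totals, the list genes PTPN12, SDC3, PPFIA1, PPFIA3 and FYN changed sign. The processing list then went from 1 gene called higher in EA.hy926 to 1 called lower. Replicate numbers did not pair the libraries, since the deviations of same-numbered libraries of the lines correlated at -0.0228 to 0.0389 and 2 of 5 EA.hy926 libraries correlated best with their own number. With the replicate block, counts of calls stayed within 1.5 times, and the paired differences of the ratios were -2.30 (PTPRK to PTPRU), 2.57 (PTPRB to PTPRJ), 1.17 (PTPRF to PTPRS) and 2.10 (PTPRA to PTPRE), each with p = 0.0625 in an exact sign-flip test, the smallest that 5 pairs allow. Without the count filter, 33071 genes were tested and 9312 called, and 8 of the other receptor-type phosphatases were called. With at least 10 counts in every library, which removes genes near 0 in one line, 3255 of 13107 genes were called, with 2 non-receptor phosphatases, 5 ligands, 0 liprins, 2 junction genes and 1 gene around PTPRM. Under glmTreat 0 processing genes were called, and with 1 library left out 0 to 1. With canonical transcript lengths, 2 of 45 pairs of members changed order in each line (PTPRF rose above PTPRA and PTPRG above PTPRJ in EA.hy926, and PTPRE above PTPRK and PTPRB in HMEC-1). Of the single members, PTPRK, PTPRB, PTPRA and PTPRG were not past glmTreat's test. Neither was PTPRF, which did not pass the main test either. The glmTreat test was not counted for adjusted p alone. Counts of called genes over the table were 5945 to 6000 with 1 library left out, against 5784. PTPRM rested on 14 to 23 counts per library in HMEC-1, which limits the precision of its fold.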
